A study of Mus musculus with 6 samples.

Results

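The tumor suppressor p53 and 9 of its target genes were examined in cultured oviductal smooth muscle cells of mice with and without Pbrm1. The 10 members were taken by gene symbol from the 54232 genes of the deposited count table: Trp53, which encodes p53, and Mdm2, Cdkn1a, Ccng1, Ptprv, Bax, Phlda3, Zmat3, Eda2r and Trp53inp1. Ptprv was selected on the large fall of its CPM between the same WT and cKO libraries. Its values are therefore given as a description with no test. The other 9 were named for being p53 or known p53 targets, in a choice made with earlier results of these data known. The cells came from females on day 2 of pregnancy that were either WT or carried a conditional Pbrm1 deletion (Pbrm1 cKO), and each group had 3 RNA-seq libraries. All females were 8 to 12 weeks old and had been mated with stud males, and all cells were freed from minced oviducts by enzymes, plated for 4 h and kept in fresh medium for 2 h before RNA was isolated. The product of Pbrm1 belongs to the chromatin remodeling complexes of the SWI/SNF family, and in the study its floxed alleles were deleted by a cre placed in the progesterone receptor locus, which acts in cells that express that receptor. The labels call the controls WT, whereas a legend in the supplement of the study names floxed mice. The labels give neither the strain nor the number of animals behind a library, so p-values measure the spread between these libraries, which may be technical.

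The p53 protein is a transcription factor that is kept scarce by MDM2, a ubiquitin ligase that p53 itself induces. When DNA is damaged or cells are stressed, p53 is freed from MDM2 and binds response elements near its target genes, whose products arrest the cell cycle, repair DNA, adjust metabolism or start apoptosis. Because p53 is controlled largely at the level of its protein, RNA-seq measures its targets and its own transcript but not its activity.

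Libraries held 15390818 to 18947947 counts, and values are CPM, read counts set to the same library total after scaling by edgeR's normalization factors, as mean ± SD over 3 libraries. At this depth 3 counts, taken as the floor, equaled 0.158 to 0.195 CPM, which covers counting error only. Pbrm1 averaged 175 ± 7.09 CPM over the WT libraries and 45.6 ± 4.39 CPM over those of cKO, which is 26% of the WT level (a log2 difference of -1.94 with an SE of 0.0637, edgeR adjusted p = 9.1e-11). The counts cover every exon, so transcripts of a deleted allele that keep other exons are included. All 10 smooth muscle markers were detected in every library, and their summed level was 3498 to 3570 CPM in WT and 4272 to 4769 CPM in cKO. Of the 10, 5 were higher in cKO and 1, Smtn, was lower (136 and 111 CPM). Acta2 and Tagln (1287 and 1598 CPM in WT) made up most of the sum. Leukocyte markers were also present: 8 of 10 were tested and all 8 were higher in cKO. The summed level of the list was 718 to 767 CPM in WT and 1091 to 1183 CPM in cKO. Lyz2 (453 CPM in WT and 621 CPM in cKO) made up most of it. Cd3e and Cd79a, which mark T and B cells, were at 0 in at least 1 library each.

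A search of RefSeq promoter windows (GRCm38.p6; from 250 bases before to 50 after an annotated start) for the p53 consensus decamer, the 10-base unit that occurs as a pair in p53 response elements and reads the same on both strands, covered 7 of the 10 members; Ptprv, Zmat3 and Trp53inp1 were not matched. The decamer was found in 5 of the 8 windows of these 7 genes and in 8.36% of all 32851 windows. Among the 68 windows of the other p53 target genes followed here, 9 (13.2%) held it. The matches in Trp53, Mdm2, Cdkn1a, Ccng1 and Bax are given because these were all the members with a match. They include genes that were lower, higher or did not pass the test in cKO. The capitals mark the decamer, and the flanks hold 25 bases on each side.
Trp53, chr11:69580259-69580318, plus strand, 65 bases before the start: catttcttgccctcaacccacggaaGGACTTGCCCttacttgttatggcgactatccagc
Mdm2, chr10:117710910-117710969, minus strand, 176 bases before the start: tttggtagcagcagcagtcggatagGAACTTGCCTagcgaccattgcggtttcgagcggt
Cdkn1a, chr17:29090881-29090962, plus strand, 63 and 41 bases before the start: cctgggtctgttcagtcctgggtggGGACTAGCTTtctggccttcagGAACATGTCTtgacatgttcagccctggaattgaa
Ccng1, chr11:40755437-40755496, minus strand, 175 bases before the start: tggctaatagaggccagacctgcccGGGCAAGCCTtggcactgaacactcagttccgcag
Bax, chr7:45467065-45467124, minus strand, 191 bases before the start: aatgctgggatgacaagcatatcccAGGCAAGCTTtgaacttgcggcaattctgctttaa
The 2 matches in Cdkn1a were separated by 12 bases. The 10 bases right after the second match missed the pattern at their first letter only, so they are not in capitals. Which of these units form a response element was not tested. No such match was found in the windows of Phlda3 and Eda2r or in the other window of Cdkn1a. None of the printed stretches overlapped an exon of GENCODE M21. A match is a description of letters and not a binding site.

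To compare levels between genes, CPM were divided by exon length (RPKM). This length covers all annotated exons of a gene and not the transcripts present in these cells, so the order also depends on the annotation. In WT the levels ran from Ccng1 at 133 ± 4.49 RPKM through Cdkn1a (75.2 ± 0.886), Phlda3 (55.9 ± 1.24), Bax (47.3 ± 2.52), Mdm2 (38.4 ± 1.04), Trp53 (33.3 ± 0.536), Eda2r (11.3 ± 0.274), Trp53inp1 (8.72 ± 0.928) and Zmat3 (7.02 ± 0.0998) to Ptprv at 4.27 ± 0.213 RPKM. By these values no neighbors in this order overlapped between their WT libraries. The length of Bax includes 192 of 1576 bases that Gm45808 shares, where reads were left out by the counting. The RPKM of Bax may thus be understated in both groups, and its separation from its neighbors was not corrected for this. In cKO the order was the same except that Phlda3 (64.7 ± 1.56 RPKM) stood before Cdkn1a (62.7 ± 5.32 RPKM). There Phlda3 and Cdkn1a overlapped, as did Mdm2 (34.3 ± 1.6 RPKM) and Trp53 (31.0 ± 2.23 RPKM). All 10 members passed the filter on low counts, and the lowest count of any member other than Ptprv in any library was 768.

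Of the 9 members other than Ptprv, 5 passed the test (edgeR quasi-likelihood, adjusted p under 0.05 over all 15376 genes tested), when 43.7% of all genes did. Phlda3 and Bax were higher in cKO, where 21.9% of all genes were called higher, and Mdm2, Cdkn1a and Zmat3 were lower, where 21.8% were. The CPM of the groups did not overlap for 6 of the 9, against 53.5% of all genes tested. The log2 fold changes of the 9 ran from -0.49 to 0.21 with a median of 0.03, beside a median of 0.00 over all genes. The share of members called was read against these shares of all genes and not as a property of the p53 targets.

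**Figure D1:**
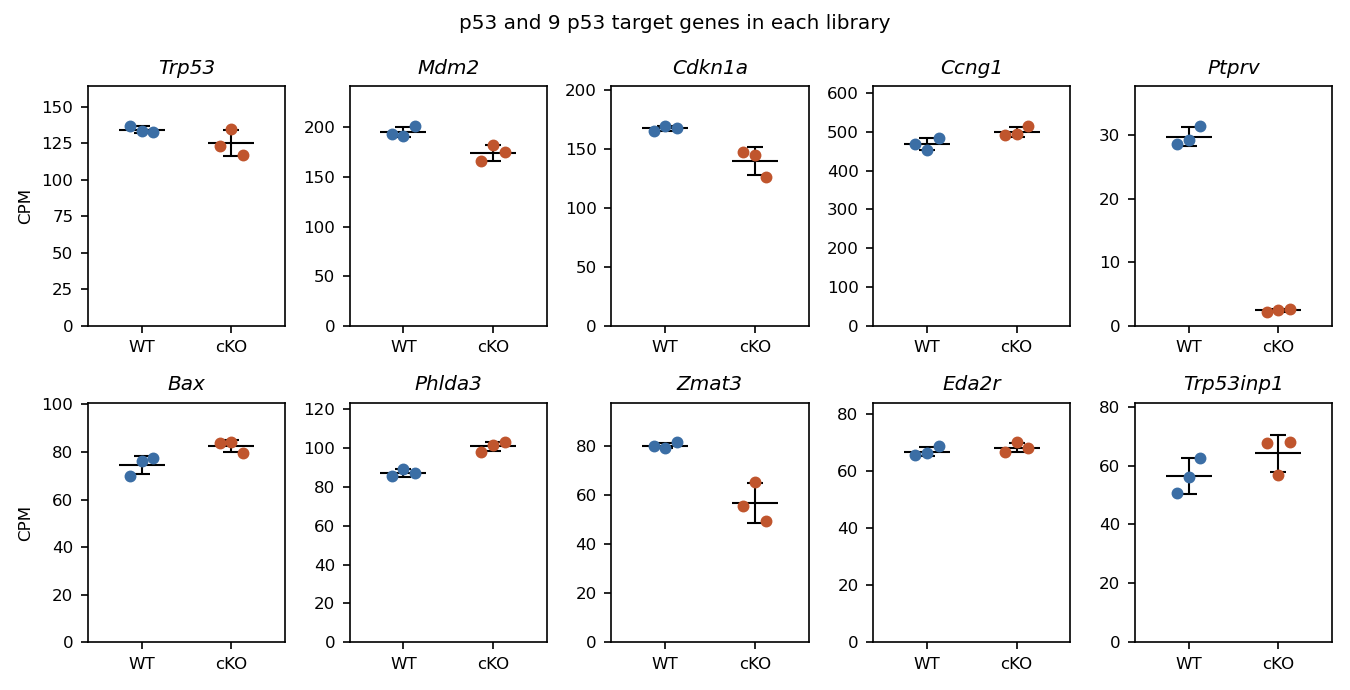
CPM (y axis, from 0) of p53 (Trp53) and 9 target genes in each of the 3 WT (blue) and 3 cKO (orange) libraries; wide bars are means and capped lines SD. The mean of Ptprv was 29.8 CPM in WT and 2.45 CPM in cKO, whereas the cKO mean of every other gene lay between 70.9% and 116% of its WT mean.

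The p53 transcript itself did not pass the test. Trp53 (ENSMUSG00000059552.13; GRCm38 chr11:69580359-69591873, plus strand) was at 137, 134 and 133 CPM in WT and at 124, 135 and 117 CPM in cKO. The groups overlapped through cKO replicate 2, and their log2 difference was -0.10 (SE 0.0533, edgeR adjusted p = 0.143). Without that library the log2 fold change was -0.15 and passed the test (edgeR adjusted p = 0.0114).

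Mdm2, the ubiquitin ligase that marks p53 for degradation and is itself a p53 target, was lower in cKO. It was at 193, 191 and 201 CPM in WT and at 166, 182 and 175 CPM in cKO (chr10:117688875-117710758, minus strand). Every cKO library lay below every WT library. Means were 195 ± 5.27 CPM in WT and 174 ± 8.15 CPM in cKO, the latter 89.3% of the WT mean (log2 fold change -0.16, SE 0.0474, edgeR adjusted p = 0.0131). The call was lost without WT replicate 3 (adjusted p = 0.0594) and without cKO replicate 1 (adjusted p = 0.0779).

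Among the members with a part in cell cycle arrest, Cdkn1a was lower in cKO and Ccng1 did not pass the test. Cdkn1a encodes p21, the inhibitor of cyclin-dependent kinases through which p53 halts the cycle (chr17:29090979-29100722, plus strand). It was at 165, 169 and 167 CPM in WT and at 148, 145 and 126 CPM in cKO, with no overlap. Its cKO mean was 139 ± 11.8 CPM against 167 ± 1.97 CPM in WT, or 83.4% (log2 fold change -0.26, SE 0.0567, edgeR adjusted p = 0.00212), and the call held in all 14 alternative settings. The promoter window with 2 matches to the decamer shown above belongs to this gene, whose other window held no match.

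Ccng1, which encodes cyclin G1, a p53-induced cyclin that acts with a phosphatase on MDM2, was the member with the highest RPKM. It was at 468, 452 and 484 CPM in WT and at 492, 493 and 515 CPM in cKO (chr11:40748552-40755311, minus strand). All cKO libraries were above all WT libraries, but the log2 fold change of 0.09 did not pass the test (SE 0.044, edgeR adjusted p = 0.101). It passed only without cKO replicate 2 (adjusted p = 0.0444).

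Ptprv, a receptor-type tyrosine phosphatase gene that p53 induces in mouse cells and that has been linked to exit from the cell cycle, was the member chosen for its fall. It lies at chr1:135108497-135132594 on the minus strand (ENSMUSG00000097993.7) and is listed as a processed transcript by GENCODE M21 and as a transcribed pseudogene by RefSeq. The WT libraries held 485, 548 and 538 counts of Ptprv, or 28.7, 29.3 and 31.5 CPM. The cKO libraries held 39, 46 and 42 counts, or 2.19, 2.44 and 2.70 CPM. The groups were far apart, and every cKO library was above the floor. Means were 29.8 ± 1.49 CPM in WT and 2.45 ± 0.255 CPM in cKO, the latter 8.20% of the WT mean (log2 fold change -3.61, SE 0.107), and the log2 fold change lay between -3.68 and -3.54 across the 14 alternatives. Of all genes tested, 2.87% were called with a log2 fold change below -1. Among the 11023 genes with a mean of at least 5 CPM, Ptprv had the 14th largest fall. Just outside it in that order were Uts2 and Gm6472, with log2 fold changes of -3.88 and -3.65, and Gm11814 and Eno1b, with -3.45 and -2.75.

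The gene Gm10535 lies antisense to Ptprv and shares 345 of its 6987 exon bases. Reads were counted by strand, and Gm10535 was at 0.0178 CPM in WT and 0 in cKO, below the floor. No transcript of GENCODE M21 was a near-identical copy of a member, defined as at least 95% identity over at least 200 bases and 50% of the other transcript.

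The genes around Ptprv were compared in the coordinates of the table. Of 32 other tested genes within 1 Mb, 12 were higher and 7 were lower in cKO (59.4% called, beside 43.7% of all genes tested), with log2 fold changes between -1.32 and 1.00 and a median of 0.12. The nearest tested gene on the side of higher coordinates was Ptpn7, a tyrosine phosphatase gene of blood cells that starts 106 bases from Ptprv on the opposite strand. Ptpn7 was at 1.65, 1.55 and 1.41 CPM in WT and at 3.32, 2.12 and 3.47 CPM in cKO, so that it was higher where Ptprv was lower (log2 fold change 0.94, SE 0.229, edgeR adjusted p = 0.00475). The summed level of the leukocyte markers given above was also higher in cKO, and its part in the Ptpn7 result was not tested. On the other side Lgr6, which encodes a receptor for R-spondins, lay 3221 bases away. It averaged 181 ± 6.23 CPM in WT and 195 ± 9.60 CPM in cKO and did not pass the test (log2 fold change 0.11, SE 0.0488, edgeR adjusted p = 0.0898).

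Among these neighbors, 2 were called with a log2 fold change beyond 1 in either direction, a class that held 6.49% of all genes tested. Tnnt2, a cardiac troponin gene, fell from 1.78 ± 0.178 to 0.796 ± 0.136 CPM (-1.14 on the log2 scale, edgeR adjusted p = 0.00245). Chil1, which encodes a chitinase-like secreted protein, fell from 2.44 ± 0.642 to 0.958 ± 0.315 CPM (-1.32 on the log2 scale, edgeR adjusted p = 0.00212). The member Phlda3 lies in the same region, 633525 bases from Ptprv.

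**Figure D2:**
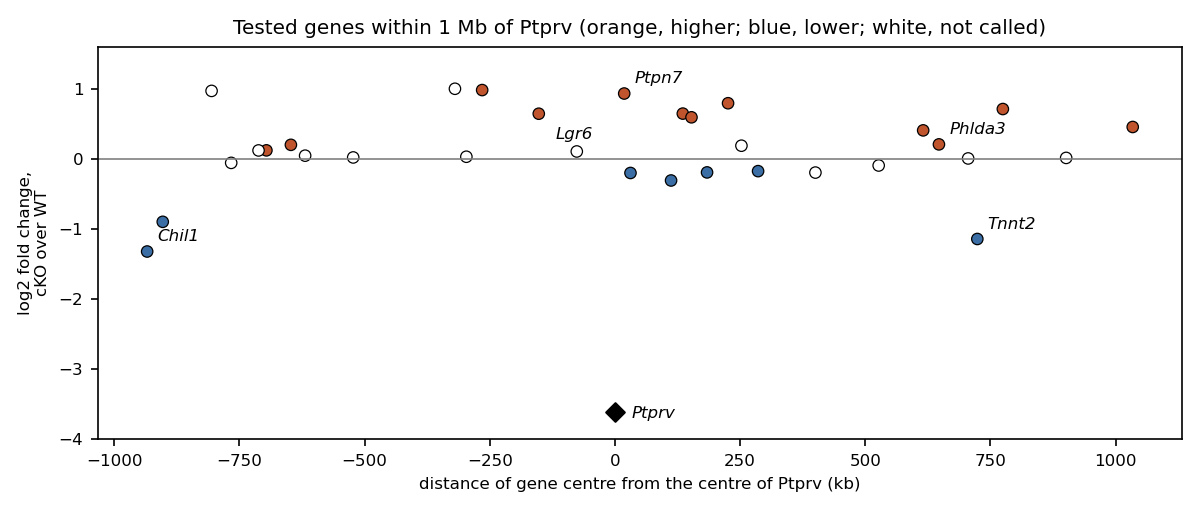
Log2 fold change of cKO over WT (y axis) for Ptprv (diamond) and the 32 other tested genes within 1 Mb of it, against the distance of the gene centers in kb (x axis); orange and blue points were called higher and lower. Ptprv at -3.61, which was selected for its large fall, lies below all its neighbors, of which the lowest is Chil1 at -1.32.

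Of the members linked to apoptosis, Bax and Phlda3 were higher in cKO, Zmat3 was lower, and Eda2r and Trp53inp1 did not pass the test. Bax encodes the protein that permeabilizes the outer membrane of mitochondria (chr7:45461697-45466898, minus strand). It was at 70.0, 76.3 and 77.4 CPM in WT and at 83.9, 84.0 and 79.8 CPM in cKO, with no overlap. The difference was small (74.6 ± 3.98 against 82.6 ± 2.42 CPM; log2 fold change 0.15, SE 0.0529, edgeR adjusted p = 0.037). The call for Bax was lost in 7 of 14 alternatives, among which the adjusted p ran from 0.0226 to 0.176. Among the fits without 1 library, the call was lost without WT replicate 1 (edgeR adjusted p = 0.176), WT replicate 2 (0.0633), cKO replicate 1 (0.108) or cKO replicate 2 (0.0533). The log2 fold change without WT replicate 2 was 0.16, no smaller than with all libraries. Gm45808, a gene on the same strand with 0 counts, shares 192 of the 1576 exon bases of Bax, and reads that touched both genes were left out by the counting.

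Phlda3 encodes a protein that competes with the kinase AKT for membrane lipids and so lowers survival signaling (chr1:135766119-135769136, plus strand). It was at 85.3, 89.2 and 87.0 CPM in WT and at 98.1, 102 and 103 CPM in cKO. The groups did not overlap, and the mean rose from 87.2 ± 1.93 to 101 ± 2.44 CPM (0.21 on the log2 scale, SE 0.0461, edgeR adjusted p = 0.00232). The call held in all 14 alternatives.

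Zmat3, or Wig1, encodes an RNA-binding zinc finger protein that p53 induces (chr3:32334792-32366014, minus strand). It was at 79.9, 79.3 and 81.5 CPM in WT and at 55.7, 65.6 and 49.4 CPM in cKO. The WT libraries lay close together, whereas the cKO libraries were lower and spread over a wider range. Means were 80.2 ± 1.14 CPM in WT and 56.9 ± 8.14 CPM in cKO, the latter 70.9% of the WT mean (log2 fold change -0.49, SE 0.0787, edgeR adjusted p = 0.000212), and the call held in all 14 alternatives.

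Eda2r encodes a receptor of the tumor necrosis factor family for the ectodysplasin form EDA-A2 (chrX:97333840-97377216, minus strand). It was at 65.7, 66.2 and 68.7 CPM in WT and at 66.6, 70.0 and 68.1 CPM in cKO, and the groups overlapped. The log2 difference was 0.03 (SE 0.0494, edgeR adjusted p = 0.655).

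Trp53inp1 encodes a stress-induced nuclear protein that helps p53 to be phosphorylated and takes part in autophagy (chr4:11156431-11174379, plus strand). It was at 50.6, 56.2 and 62.6 CPM in WT and at 67.8, 56.9 and 67.8 CPM in cKO. The groups overlapped because cKO replicate 2 lay among the WT libraries (log2 fold change 0.18, SE 0.0818, edgeR adjusted p = 0.0885). It passed the test without cKO replicate 2 (adjusted p = 0.00546), without WT replicate 3 (0.0325) and with no filter on low counts (0.0285).

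**Figure D3:**
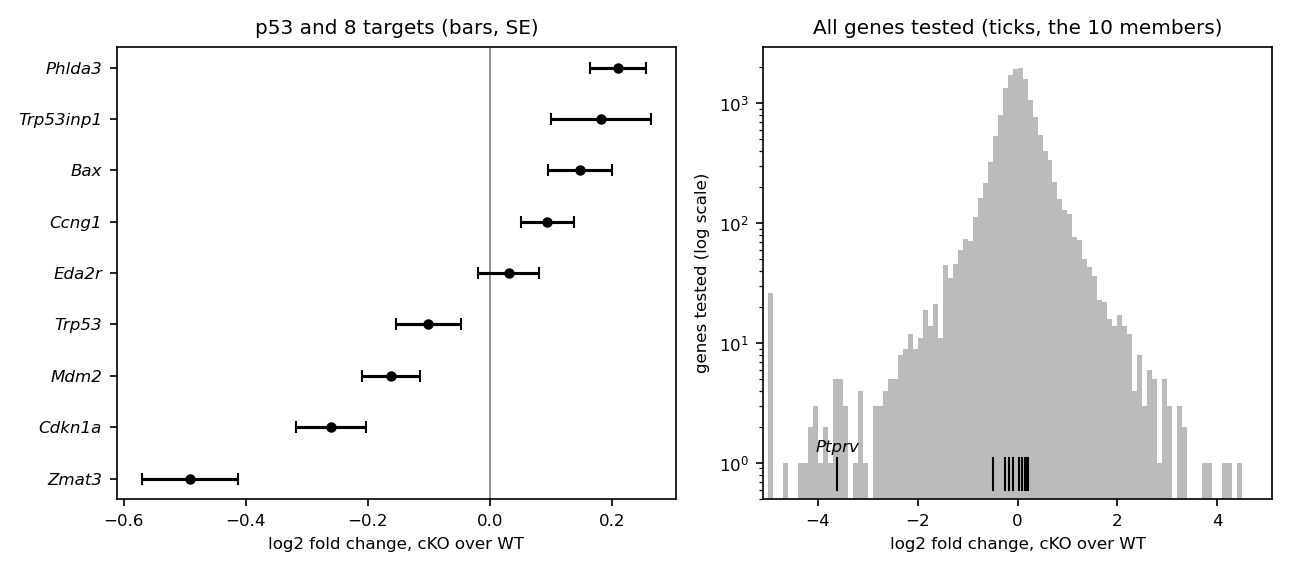
Left, log2 fold change of cKO over WT with SE for p53 (Trp53) and 8 target genes, from -0.49 (Zmat3) to 0.21 (Phlda3). Right, number of tested genes (log scale) by log2 fold change, where the end bins take in all values beyond 5 in size. Ticks mark the 10 members, and Ptprv at -3.61, which was selected for its large fall, stands apart from the other 9.

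The 5 genes whose decamers are printed above did not move as one. Mdm2 and Cdkn1a were lower in cKO, Bax was higher, and Trp53 and Ccng1 did not pass the test.

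Markers of other cell types and of the state of the cells also differed between the groups. The summed level of 8 proliferation genes was 896 to 937 CPM in WT and 590 to 598 CPM in cKO, and all 8 fell, beside the lower Cdkn1a. The sum of 12 genes that respond to tissue dissociation was 505 to 583 CPM in WT and 668 to 741 CPM in cKO, with 7 higher and 1 lower. Fibroblast markers summed to 1273 to 1291 CPM in WT and 2183 to 2345 CPM in cKO, with 6 of 8 higher and 1 lower. Pdgfra (747 CPM in WT and 1319 CPM in cKO) made up most of these sums, whereas Dpt fell from 53.5 to 34.0 CPM. Epithelial markers (5 of 10 higher, 1 lower) summed to 965 to 1052 CPM in WT and 1075 to 1199 CPM in cKO, and mesothelial markers (1 of 5 higher, 2 lower) to 281 to 286 and 325 to 357 CPM. Endothelial markers (1 of 8 higher, 1 lower) summed to 347 to 367 CPM in WT and 283 to 290 CPM in cKO. Of these, Kdr fell from 182 to 99.4 CPM, whereas Vwf rose from 4.35 to 14.2 CPM. Of the mesothelial markers, Krt19 rose from 125 to 216 CPM, whereas Msln fell from 54.6 to 30.8 CPM and Lrrn4 from 26.1 to 20.1 CPM. The differences in the endothelial and mesothelial sums thus rested on Kdr and Krt19, and other called markers went the other way. The part of these differences in the results for the members and the pathway genes below was not tested. In bulk RNA, fewer cells of a type and less RNA per cell cannot be told apart.

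To set the members among the rest of the pathway, 91 other genes in 8 lists were followed. All 8 lists were chosen with earlier results of these data known. Of the 88 that passed the filter, 44 (50%) were called, 18 higher and 26 lower, beside 43.7% of all genes called, 21.9% higher and 21.8% lower; their median log2 fold change was -0.00507. The counts of the lists that follow are to be read against the same shares. The 7 lists of target genes held 62 genes, with 15 higher, 15 lower and a median log2 fold change of -0.00355, so that calls in the pathway went in both directions.

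**Figure D4:**
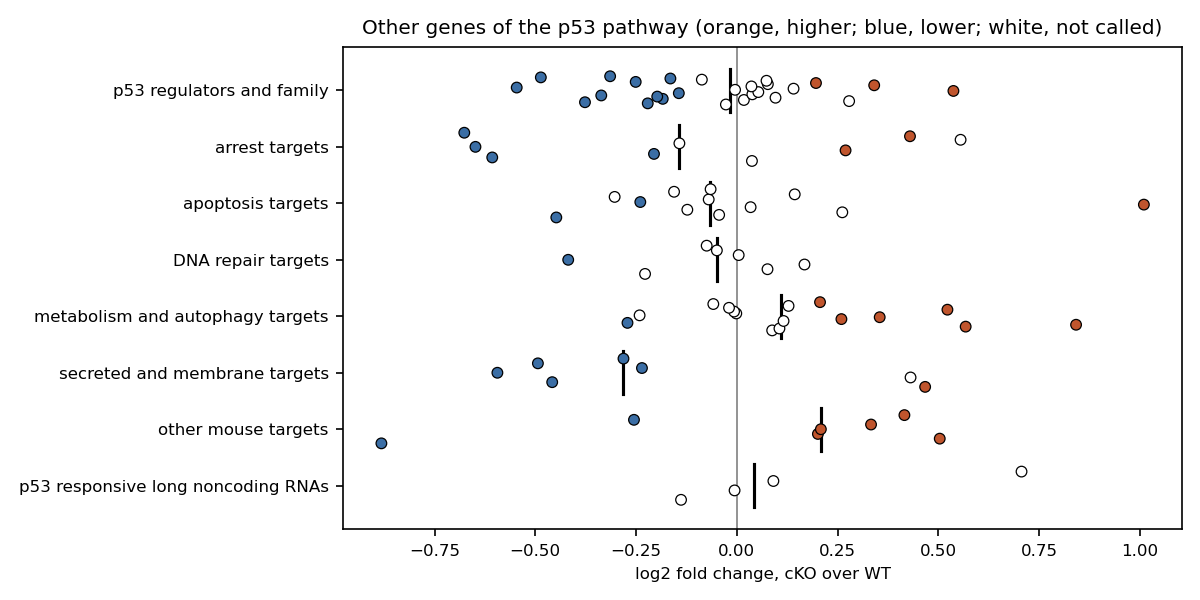
Log2 fold change of cKO over WT (x axis) for 88 other genes of the p53 pathway in 8 lists (y axis); filled points were called higher (orange) or lower (blue), white points were not called, and black lines are medians. Every list but the DNA repair genes and the long noncoding RNAs held genes called in both directions, and Fas at 1.01 and Ak1 at -0.88 were the farthest out.

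Of 26 tested regulators and relatives of p53, 11 were lower and 3 higher in cKO, with a median log2 fold change of -0.02. The family members Trp63 and Trp73 and the Arf locus Cdkn2a were too low to be tested. Usp10, a deubiquitinase that stabilizes p53, fell from 102 ± 2.45 to 73.0 ± 3.8 CPM (-0.49 on the log2 scale, edgeR adjusted p = 5.6e-06). Ppp1r13l, which encodes the p53 inhibitor iASPP, fell from 19.7 ± 3.17 to 13.4 ± 1.06 CPM (-0.55 on the log2 scale), and Chek1, a DNA damage checkpoint kinase, fell from 26.3 ± 2.13 to 20.2 ± 1.33 CPM (-0.38). Pml, a nuclear body protein that recruits p53, rose from 45.6 ± 2.59 to 66.3 ± 6.73 CPM (0.54), and Rchy1, a ubiquitin ligase for p53, rose from 28.9 ± 0.811 to 36.7 ± 1.52 CPM (0.34). The p53 inhibitor Mdm4, a relative of Mdm2, averaged 59.5 ± 1.52 CPM in WT libraries and 61.6 ± 3.79 CPM in the others and did not pass the test (log2 fold change 0.05, edgeR adjusted p = 0.482). Without cKO replicate 1, 7 regulators were called lower.

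Of 9 arrest genes, 4 fell and 2 rose, with a median of -0.14. Plk2, a polo-like kinase, was at 372, 362 and 366 CPM in WT and at 203, 287 and 211 CPM in cKO (log2 fold change -0.65, SE 0.0963, edgeR adjusted p = 0.000111). All cKO libraries were below the WT libraries, with cKO replicate 2 closest to them, as for Zmat3. Among the cKO libraries Pbrm1 itself was highest in replicate 2 (50.7 CPM, beside 43.5 and 42.7 CPM), and a link between these values was not tested. Tob1, an antiproliferative protein, fell from 9.32 ± 0.527 to 5.81 ± 1.37 CPM (-0.68), and E2f7, a repressor of cell cycle genes, fell from 18.2 ± 1.2 to 11.9 ± 0.602 CPM (-0.61). Sfn, or 14-3-3 sigma, which is abundant in epithelia, rose from 18.8 ± 0.860 to 25.4 ± 2.60 CPM (0.43). Gadd45a, a growth arrest gene, rose from 17.4 ± 1.04 to 20.9 ± 1.07 CPM (0.27, edgeR adjusted p = 0.014), a call that was lost without WT replicate 2 (adjusted p = 0.0717) and without cKO replicate 3 (0.0551), and 1 arrest gene was called higher without the latter.

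Of 12 apoptosis genes, 1 rose and 2 fell. Fas, the death receptor, was at 9.81, 9.52 and 8.96 CPM in WT and at 19.6, 17.1 and 20.3 CPM in cKO (log2 fold change 1.01, SE 0.0951, edgeR adjusted p = 2.0e-06). It was the pathway gene with the largest called rise. Aen, an apoptosis-enhancing nuclease, fell from 122 ± 4.15 to 89.3 ± 4.23 CPM (-0.45). Perp, a membrane protein of desmosomes and apoptosis, was at 24.3 ± 2.82 and 20.6 ± 1.40 CPM (-0.24, edgeR adjusted p = 0.0455), and its call was lost without WT replicate 2 (adjusted p = 0.0758), WT replicate 3 (0.219), cKO replicate 1 (0.0774) or cKO replicate 2 (0.125). The number of genes of the list called lower was 1 without WT replicate 2, WT replicate 3 or cKO replicate 1, and 2 genes were called higher without cKO replicate 2. Bbc3 (Puma) and Pmaip1 (Noxa), p53-induced killers that act on mitochondria, were at 3.8 ± 0.173 and 3.01 ± 0.439 CPM in WT, and did not pass the test (edgeR adjusted p = 0.178 and 0.194).

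Of 7 DNA repair genes, 1 was called: Polh, a translesion polymerase, fell from 66.8 ± 0.367 to 49.9 ± 3.13 CPM (-0.42 on the log2 scale, edgeR adjusted p = 4.9e-05). Of 16 genes of metabolism and autophagy, 6 rose and 1 fell, with a median of 0.11. Dram1, a lysosomal membrane protein of autophagy, was at 17.5, 17.9 and 14.9 CPM in WT and at 32.3, 27.4 and 30.6 CPM in cKO (0.84, SE 0.0882, edgeR adjusted p = 5.4e-06). Ddit4, an inhibitor of the kinase complex mTORC1, rose from 37.4 ± 2.43 to 55.4 ± 2.83 CPM (0.57), and Sesn1, a stress-induced sestrin, rose from 12.3 ± 0.796 to 17.7 ± 0.641 CPM (0.52). Lpin1, a lipin of lipid synthesis, was at 9.28 ± 0.724 and 11.8 ± 1.01 CPM (0.35, edgeR adjusted p = 0.0141; 0.0733 without WT replicate 2). The 1 gene that was lower, the mitochondrial reductase Fdxr (31.4 ± 1.32 and 26.1 ± 3.79 CPM), had an adjusted p of 0.0288 by edgeR and lost its call without WT replicate 1 (adjusted p = 0.0664), WT replicate 2 (0.101) or cKO replicate 2 (0.101), which left 0 genes of the list lower.

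Of 7 genes for secreted and membrane proteins, 5 fell and 1 rose, with a median of -0.28. Thbs1, which encodes the matrix protein thrombospondin 1, fell from 9481 ± 102 to 7802 ± 746 CPM (-0.28 on the log2 scale, edgeR adjusted p = 0.00184). Igfbp3, a binding protein of insulin-like growth factors, fell from 42.2 ± 1.31 to 28.0 ± 2.36 CPM (-0.59), Steap3, an iron reductase, fell from 24.2 ± 1.75 to 17.1 ± 1.74 CPM (-0.49), and Epha2, an ephrin receptor, fell from 165 ± 3.8 to 120 ± 13 CPM (-0.46). The tetraspanin Cd82 rose from 15.8 ± 0.830 to 21.8 ± 0.766 CPM (0.47). Without WT replicate 1 or cKO replicate 2, 2 genes of this list were called higher.

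All 7 of the remaining mouse targets were called, 5 higher and 2 lower, in a list that, like the others, was chosen with earlier results of these data known. Of those called higher, Dglucy (edgeR adjusted p = 0.0495, groups overlapping) and Ddit4l (0.0454) lay near the threshold. DESeq2 called 3 of the list higher. Ak1, which encodes an adenylate kinase abundant in muscle, was at 417, 404 and 419 CPM in WT and at 205, 255 and 213 CPM in cKO (log2 fold change -0.88, SE 0.0674, edgeR adjusted p = 3.0e-07). Dcxr, a sugar reductase, rose from 9.74 ± 0.588 to 13.8 ± 0.375 CPM (0.50), Zfp365, a protein of genome stability, rose from 33.9 ± 0.877 to 45.2 ± 3.95 CPM (0.42), and Ephx1, an epoxide hydrolase, rose from 36.9 ± 1.6 to 46.6 ± 5.00 CPM (0.33). The small GTPase gene Rap2b was at 30.8 ± 2.16 and 25.7 ± 3.71 CPM (-0.26, edgeR adjusted p = 0.0416). Its call was lost without WT replicate 1, 2 or 3 (adjusted p = 0.0642, 0.169 and 0.0566) and without cKO replicate 1 or 3 (0.0838 and 0.161), which left 1 gene of the list lower. Without WT replicate 1, WT replicate 2 or cKO replicate 1, 3 of the 7 were called higher. None of 4 long noncoding RNAs linked to p53 was called by edgeR, DESeq2 or limma-voom, and 0 had an unadjusted edgeR p under 0.05. Without cKO replicate 2, 1 of them was called lower. Trp53cor1, or lincRNA-p21, was near the floor, with means of 0.359 ± 0.234 CPM (WT) and 0.582 ± 0.238 CPM (cKO), and the paraspeckle RNA Neat1 was at 179 ± 45.4 and 178 ± 17.1 CPM.

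The genes whose levels ran most like those of Ptprv and Cdkn1a were sought by Pearson's r of log2 CPM over the 6 libraries, which share the division into 2 groups. The protein-coding genes closest to Ptprv were Aldh1a2, a retinoic acid-synthesizing enzyme (r = 0.999), Bnc1, a zinc finger protein (r = 0.999), and Ddx27, an RNA helicase (r = 0.999). Aldh1a2 fell from 90.6 ± 2.27 to 39.4 ± 0.777 CPM, a smaller change than that of Ptprv. Of 10609 genes compared, 107 had an r over 0.99 with Ptprv. The closest to Cdkn1a were Ranbp10, Papola and Fbxo17 (r = 0.994 for each), and 9 of 10608 genes exceeded 0.99. These correlations are descriptions: any gene that is lower in cKO and varies little within the groups has a high r with Ptprv.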

How the data were processed

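RNA-seq of 6 libraries was analysed from a single table of raw read counts deposited by the authors. The file headers name featureCounts 1.6.4, set to reverse-stranded counting over the exons of GENCODE M18; the submitters' processing notes also name cutadapt, HISAT2 and GRCm38.p5. The deposited counts are not normalized. Symbols came from GENCODE M21 (99.7% of genes matched) and promoters from RefSeq GRCm38.p6.

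The main test was the two-sided quasi-likelihood F-test of edgeR 4.0.16 (R 4.3.3) with TMM factors and filterByExpr by group at a minimum count of 10, without covariates and with Benjamini-Hochberg adjustment over all 15376 genes that passed. The SE is the absolute log2 fold change divided by the square root of F. Alternatives were DESeq2 1.42.0 (which the study used for its uterine libraries), limma-voom (limma 3.58.1), 3 other scalings, 2 other filters, the replicate number as a block and each library left out. The tests were checked on simulated counts. Every pair of libraries of a group differed by more than sampling noise (chi-square per gene 1.31 to 1.60), so all 6 were used. Near-identical transcripts were sought with BLAST 2.17.0.

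The members and gene lists were chosen with earlier results of these data known. Named genes were the members, Pbrm1, up to 5 called genes per pathway list with the largest change and a mean of at least 1 CPM, the nearest tested neighbors of Ptprv and those called beyond a log2 fold change of 1 within 1 Mb, and the 3 protein-coding genes of at least 5 CPM most like Ptprv and like Cdkn1a. Mdm4, Bbc3, Pmaip1, Dglucy, Ddit4l, Trp53cor1, Neat1, the marker genes and the genes next to Ptprv in size of fall were named after their values were seen.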

Additional observations from a re-analysis of the deposited data

How the results depend on the processing

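Across 14 alternatives, none of the 10 members, Pbrm1 or the 29 other pathway genes followed changed direction, and Cdkn1a, Phlda3, Zmat3, Eda2r and Pbrm1 kept their side of the threshold in every one. Over all settings the all-gene median stayed between -0.0103 and 0.0174 (log2). The number of genes called was 6723, with 5532 to 7054 across the alternatives. Bax lost its call with DESeq2 (log2 fold change 0.14, adjusted p = 0.0898), upper-quartile factors (0.14, adjusted p = 0.0528) and no filter on low counts (0.14, adjusted p = 0.0776), so that the number of members called higher was 1 with DESeq2 and with upper-quartile factors. Trp53inp1 passed with no filter (0.17) and with the replicate block (0.18, edgeR adjusted p = 0.0455). Same-numbered libraries of the 2 groups correlated at -0.0201, 0.0351 and 0.0881, and differently numbered ones at -0.0733 to 0.0411. No clear pairing by number was seen, but values this small cannot exclude a weak one. The replicate block gave 6908 calls. Of the list counts, apoptosis genes lower were 1 with DESeq2 and with library size only, other mouse targets higher were 3 with DESeq2, upper-quartile factors, no filter and the replicate block, and secreted and membrane targets higher were 2 with limma-voom, no filter and the replicate block. The causes of these shifts were not tested.

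Leaving out 1 library at a time gave log2 fold changes of 0.10 to 0.17 for Bax, -0.19 to -0.13 for Mdm2, -0.154 to -0.0561 for Trp53, 0.0689 to 0.12 for Ccng1 and 0.11 to 0.27 for Trp53inp1. Over the same 6 fits, members higher numbered 1 to 3. Regulators lower numbered 7 to 10, arrest genes higher 1 to 2, apoptosis genes higher 1 to 2 and lower 1 to 2, metabolism and autophagy genes lower 0 to 1, secreted and membrane genes higher 1 to 2, other mouse targets higher 3 to 5 and lower 1 to 2, and long noncoding RNAs lower 0 to 1. Among the 29 other pathway genes, 17 of 406 values lost their call, in 5 genes (Perp, Rap2b, Fdxr, Gadd45a and Lpin1). With 3 libraries per group and no second experiment, differences as small as those of most members rest on a narrow spread between libraries.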
